A study of Mus musculus with 8 samples.

Results

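The genes examined here were 4 ligands and 3 receptors of platelet-derived growth factor (PDGF) and CXCL12 signalling, in the forming heart of mouse embryos with and without the LIM-homeodomain factor Isl1. They were taken by symbol (Pdgfa, Pdgfb, Pdgfc and Cxcl12 as ligands, Pdgfra, Pdgfrb and Cxcr4 as receptors), 7 of the 20701 symbols in the deposited count table, and for each symbol the transcript entry with the highest summed read count was used. RNA sequencing had been done on single C57BL/6 embryos at E8.75 (embryonic day), at the stage of 6 somites, from dissected pharyngeal mesoderm together with the heart. There were 4 Isl1-/- embryos (knockout) and 4 genotyped wild-type embryos, called KO1 to KO4 and WT1 to WT4 here. Isl1-/- is a germline genotype, so tissues outside the heart lacked Isl1 as well, and the labels did not say whether the groups were littermates. All comparisons are of knockout with wild-type, and each embryo was 1 replicate.

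PDGFs are secreted dimers that activate receptor tyrosine kinases at the surface of mesenchymal cells. PDGF-A and PDGF-C act mainly through the receptor encoded by Pdgfra, which is widespread in early mesoderm and neural crest derivatives, and PDGF-C has to be cut by a protease before it can bind. PDGF-B is made by endothelial cells among others and also activates the receptor encoded by Pdgfrb, known for recruiting the mural cells of vessels. CXCL12 is a chemokine that guides migrating cells through the G protein-coupled receptor CXCR4, and a second receptor, ACKR3, takes it up and removes it. Both systems are known from work on the outflow tract, the cardiac neural crest and the coronary vessels.

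Cxcl12 has 3 transcript entries whose coding sequences differ at the end. These ends, read from chromosome 6 (plus strand) of GENCODE vM1 (NCBIM37, the assembly also called mm9), are shown because the reads of the 3 entries are compared further on. Each starts with the last 30 coding bases that all forms share, in lower case, and goes on in capitals with the bases of that form alone, including the stop codon.
alpha: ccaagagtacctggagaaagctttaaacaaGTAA
beta: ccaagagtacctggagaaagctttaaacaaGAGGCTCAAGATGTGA
gamma: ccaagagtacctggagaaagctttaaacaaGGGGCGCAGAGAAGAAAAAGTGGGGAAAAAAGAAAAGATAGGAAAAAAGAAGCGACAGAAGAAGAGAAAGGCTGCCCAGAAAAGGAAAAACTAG
The forms share their first 266 coding bases. The alpha form ends after 4 bases of its own, the beta form after 16 and the gamma form after 94.

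Total counts over 1 entry per gene were 23480470 to 26153039 in the wild-type and 18916452 to 25047013 in the knockout libraries. Isl1 was at 9.72, 9.76, 26.9 and 23.3 CPM (read counts scaled by TMM to 1000000 per library) in WT1 to WT4 and at 1.78 to 2.40 CPM in the knockout embryos, a log2 fold change of -3.0 (SE 0.36, edgeR FDR 0.0041). Summed over 8 cardiomyocyte markers the levels were 2743 to 4022 CPM in WT and 1500 to 2192 CPM in KO embryos, and all 8 markers passed the FDR threshold as lower. In these bulk samples fewer cells of a type and less RNA per cell cannot be told apart, for these markers or for any gene below. Tissue of other kinds was present as well: 6 markers of extraembryonic endoderm summed to 464 to 4198 CPM in WT and 365 to 6101 CPM in KO embryos, and 6 erythroid markers to 362 to 2332 and 1238 to 3081 CPM. Summed over 6 neural tube markers the levels were 278 to 315 and 276 to 370 CPM, and over 7 foregut endoderm markers 286 to 427 and 297 to 442 CPM, with 0 past the FDR in these 4 lists. Reads of 4 Y-linked genes were many in 1 of 4 wild-type and 3 of 4 knockout embryos, and few or none in the others. KO2 was labelled as total RNA, the rest as polyA RNA.

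None of the 7 ligand and receptor genes passed the threshold for a difference between the genotypes, an edgeR FDR under 0.05 over all genes tested. All 7 passed the filter on low counts. Of the 14075 genes tested, 0.973% passed that threshold, 0.107% as higher and 0.867% as lower in the knockout. The Wald test of DESeq2 also called 0 of the 7, where it called 4.97% of all genes. An unadjusted edgeR p under 0.05 was reached by 2 of the 7, Pdgfb and Cxcl12, both higher in the knockout, where 7.37% of all genes reached it as higher. A further fit had many against few or no Y-linked reads as a second term (the Y-linked covariate). There 1 of the 7 reached an unadjusted p under 0.05, Pdgfb, and Cxcl12 did not (edgeR FDR 0.448). Leaving out 1 embryo gave 1 to 4 of the 7, with Pdgfb alone without KO1 or KO4, and Pdgfra and Pdgfrb beside Pdgfb and Cxcl12 without WT3. The values of the 2 genotypes overlapped in all 7 genes, while 10.3% of all genes tested had values that did not overlap, 6.33% with the knockout lower. A 1.5-fold change together with an unadjusted p under 0.05 was reached by 0 of the 7 and by 3.93% of all genes. Of the 7 estimates 6 were above 0, against 51.2% of all genes, with a median log2 fold change of 0.21 against 0.0063 over all genes.

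**Figure D1:**
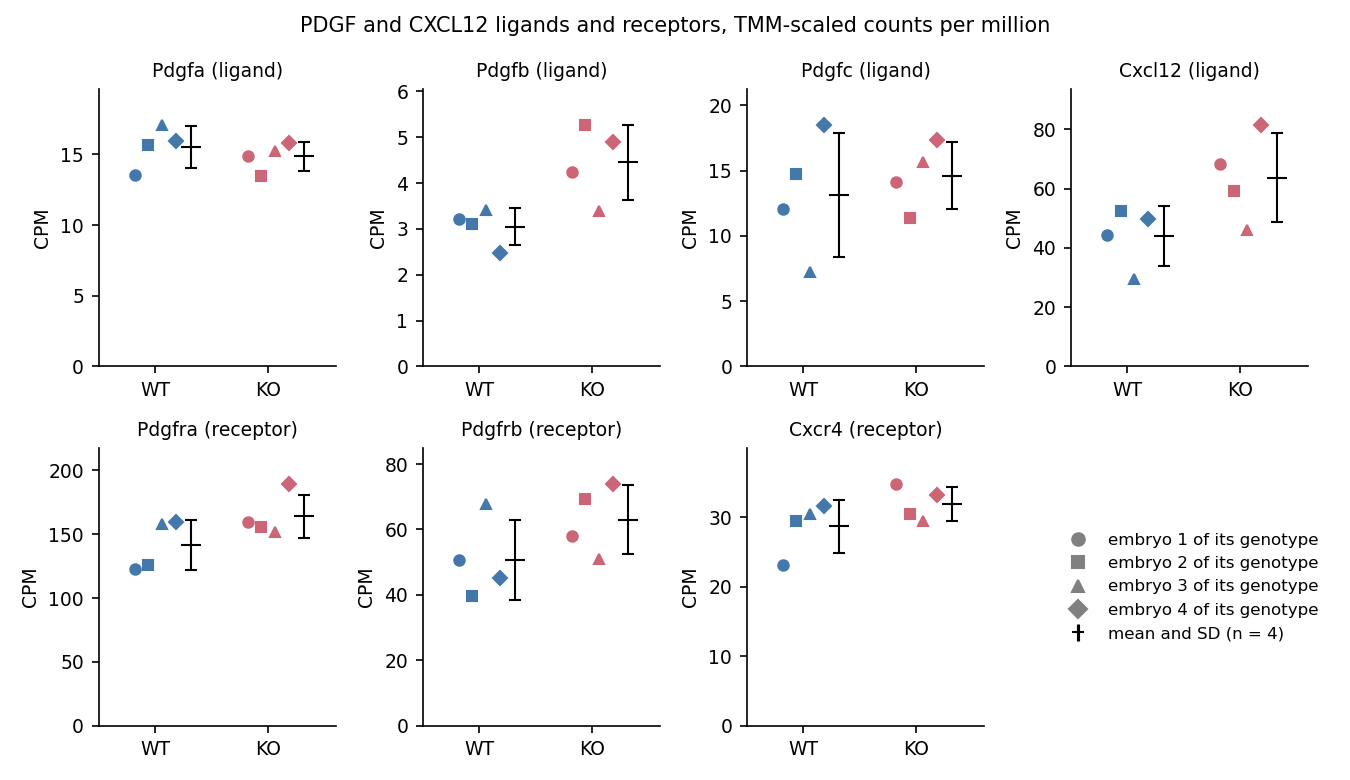
Levels of the 4 ligands and 3 receptors in TMM-scaled CPM on axes that start at 0. Each symbol is 1 embryo, wild-type (WT) in blue and knockout (KO) in red, with the mean and SD in black (n = 4). For Pdgfb and Cxcl12, 3 of 4 knockout embryos lie above the highest wild-type embryo, and the groups overlap in every panel.

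Among the PDGF ligands, Pdgfa (NM_008808, chromosome 5, 139451968 to 139473324, minus strand, mm9) encodes the A chain, which binds only the receptor encoded by Pdgfra. It was measured at 13.5, 15.7, 17.1 and 15.9 CPM in WT1 to WT4, and at 14.9, 13.5, 15.3 and 15.8 CPM in KO1 to KO4. The knockout values lay within the wild-type range but for KO2, just below its lowest embryo. The means were 15.5 ± 1.48 and 14.9 ± 1.0 CPM (SD, n = 4), and the log2 fold change was -0.07 (95% interval -0.30 to 0.17, edgeR FDR 0.787). The estimate was -0.12 without WT1, -0.02 without KO2 and -0.12 with the Y-linked covariate. That interval leaves out a 1.5-fold change in either direction. The deposited entry was 1007 bases long and the 4 coding transcripts of GENCODE vM1 were 1287 to 2060 bases long, so reads in the rest of the longer transcripts were not counted.

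Pdgfb (NM_011057, chromosome 15, 79826330 to 79845238, minus strand) encodes the B chain and was the weakest of the 7 genes. Its reads numbered 65 to 81 in WT and 65 to 127 in KO libraries. Its levels were 3.21, 3.10, 3.41 and 2.47 CPM in WT1 to WT4 and 4.25, 5.26, 3.40 and 4.90 CPM in KO1 to KO4. KO3 stood just below the highest wild-type embryo, and the 3 other knockout embryos stood above it. The highest value was that of KO2, the library labelled as total RNA. The means were 3.05 ± 0.407 and 4.45 ± 0.818 CPM (SD, n = 4), with p = 0.0571 in an exact permutation test (two-sided). The log2 fold change was 0.55 (SE 0.18, 95% interval 0.14 to 0.95, unadjusted p = 0.0134, edgeR FDR 0.176), an estimate of 1.46-fold, and the interval is not adjusted for the number of genes. With the Y-linked covariate the estimate was 0.73 (edgeR FDR 0.185). Leaving out 1 embryo gave 0.458 (without WT4) to 0.655 (without KO3), and 0.463 without KO2. Endothelial cells are a known source of Pdgfb, and 8 endothelial markers summed to 339 to 430 CPM in WT and 265 to 384 CPM in KO embryos, with 0 of 8 past the FDR. Of the 8 marker estimates 2 were above 0 and 6 below, with a median log2 fold change of -0.12. An unadjusted p under 0.05 was reached by 1 of the 8, as lower. Platelets and their precursors are another known source, and 5 megakaryocyte markers summed to 6.23 to 10.2 CPM in WT and 7.35 to 9.53 CPM in KO embryos. Of these, Pf4, Gp9 and Ppbp had 4, 9 and 7 reads over all 8 libraries, and Itga2b and Gp1bb passed the filter with log2 fold changes of 0.05 and 0.11 (edgeR FDR 0.933 and 0.804). The part of either cell type in the Pdgfb values was not tested.

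Pdgfc (NM_019971, chromosome 3, 80840338 to 81017962, plus strand) encodes the C chain. It was at 12.1, 14.8, 7.25 and 18.5 CPM in WT1 to WT4 and at 14.1, 11.4, 15.6 and 17.4 CPM in KO1 to KO4. The lowest and the highest of the 8 values were both in wild-type embryos, WT3 and WT4. The means were 13.1 ± 4.73 and 14.6 ± 2.55 CPM (SD, n = 4), with a log2 fold change of 0.15 (95% interval -0.41 to 0.71, edgeR FDR 0.795). The direction rested on WT3: without it the log2 fold change was -0.05, and with the Y-linked covariate it was -0.12.

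The chemokine Cxcl12 (NM_001012477, chromosome 6, 117118553 to 117131385, plus strand) was measured at 44.2, 52.4, 29.5 and 49.7 CPM in WT1 to WT4. In KO1 to KO4 it was at 68.2, 59.2, 46.1 and 81.4 CPM. KO3 lay inside the wild-type range and the other knockout embryos above it, while WT3 was the lowest of all. The means were 43.9 ± 10.2 and 63.7 ± 14.9 CPM (SD, n = 4), with an exact two-sided permutation p of 0.0857. The log2 fold change was 0.54 (SE 0.20, 95% interval 0.09 to 0.99, unadjusted p = 0.0243, edgeR FDR 0.219), an estimate of 1.45-fold. DESeq2 gave 0.54 with an adjusted p of 0.0858. Without WT3 the log2 fold change was 0.39 (edgeR FDR 0.204), and with the Y-linked covariate it was 0.44 (edgeR FDR 0.448).

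Pdgfra (NM_001083316, chromosome 5, 75548316 to 75594229, plus strand) encodes the receptor for PDGF-A and PDGF-C and was the most abundant of the 7 genes. It was at 123, 126, 158 and 160 CPM in WT1 to WT4 and at 160, 155, 152 and 189 CPM in KO1 to KO4. The wild-type embryos fell into a lower and a higher pair, and only KO4 stood clearly above the higher pair. The means were 142 ± 19.7 and 164 ± 17.0 CPM (SD, n = 4), and the log2 fold change was 0.21 (SE 0.11, 95% interval -0.03 to 0.45, edgeR FDR 0.34). Without KO4 the estimate was 0.14, and with the Y-linked covariate 0.13. A 1.5-fold change lay outside that interval. Paraxial and cranial mesoderm, a tissue in which Pdgfra is known to be strong, had 8 markers that summed to 163 to 245 CPM in WT and 167 to 290 CPM in KO embryos, with 0 of 8 past the FDR. Of the 8 marker estimates 6 were above 0 and 2 below, with a median log2 fold change of 0.09. The highest value of both the markers and Pdgfra was in KO4, which was also the highest embryo for Pdgfrb and Cxcl12. The part of the markers in the Pdgfra values was not tested.

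Pdgfrb (NM_001146268, chromosome 18, 61204804 to 61244715, plus strand) encodes the receptor of PDGF-B on mural cells. It was at 50.7, 39.6, 67.8 and 45.0 CPM in WT1 to WT4 and at 58.1, 69.3, 50.8 and 73.8 CPM in KO1 to KO4. WT3 was within the upper part of the knockout range, and the 3 other wild-type embryos lay below every knockout embryo. The means were 50.8 ± 12.2 and 63.0 ± 10.5 CPM (SD, n = 4). The log2 fold change was 0.31 (SE 0.17, 95% interval -0.07 to 0.69, edgeR FDR 0.382). Leaving out 1 embryo gave 0.21 (without WT2, edgeR FDR 0.618) to 0.48 (without WT3, edgeR FDR 0.0845). With the Y-linked covariate the estimate was 0.42 (edgeR FDR 0.412). The 2 deposited entries of Pdgfrb had the same counts in every library. For neural crest, from which many Pdgfrb cells of the outflow tract later descend, 7 markers summed to 228 to 273 CPM in WT and 200 to 373 CPM in KO embryos, and 0 of 7 passed the FDR. All 7 marker estimates were above 0, with a median log2 fold change of 0.30, and Snai2 had an unadjusted p under 0.05 (log2 fold change 0.48, edgeR FDR 0.103). Their part in the Pdgfrb values was not tested.

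Cxcr4 (NM_009911, chromosome 1, 130484776 to 130488870, minus strand) encodes the signalling receptor of CXCL12. It was at 23.2, 29.4, 30.5 and 31.7 CPM in WT1 to WT4 and at 34.8, 30.5, 29.5 and 33.2 CPM in KO1 to KO4. Apart from WT1, which was lower, the 7 other embryos spanned a narrow range. The means were 28.7 ± 3.78 and 32 ± 2.43 CPM (SD, n = 4), and the log2 fold change was 0.16 (95% interval -0.09 to 0.40, edgeR FDR 0.489). The estimate was 0.07 without WT1 and 0.09 with the Y-linked covariate. Cxcr4 was thus the third gene, with Pdgfa and Pdgfra, whose interval lay within 1.5-fold of no change, as did 68.5% of the intervals of all genes.

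**Figure D2:**
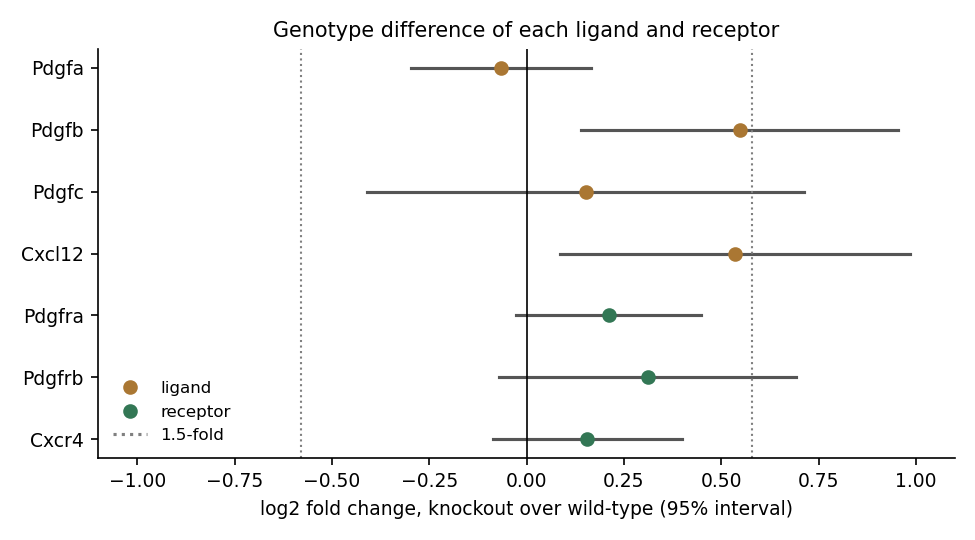
Log2 fold change of each gene, knockout over wild-type, from the edgeR fit, with its unadjusted 95% interval. Pdgfb and Cxcl12 have intervals above 0 whose estimates fall just short of the dotted 1.5-fold line, and neither passed the FDR threshold.

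The levels of different genes were compared per length, as the deposited RPKM values (reads scaled by transcript length in kilobases and to 1000000 counted reads). In the wild-type embryos the order was Pdgfra at 12.6 ± 1.99, Cxcr4 at 9.22 ± 1.34, Pdgfa at 8.97 ± 0.950, Pdgfrb at 5.48 ± 1.35, Cxcl12 at 4.50 ± 1.04, Pdgfc at 2.18 ± 0.809 and Pdgfb at 0.603 ± 0.0747 RPKM (SD, n = 4). The order of the means was the same in the knockout embryos. With the entries used, each receptor was therefore measured above the ligand paired with it here. The place of Cxcl12, and its ratio to Cxcr4, depend on the entry chosen. Its gamma entry, used here, was at 7.76 CPM per kilobase in WT and 11.2 in KO embryos. Its beta entry, compared further on, was at 11.0 and 15.8. These 2 pairs of values can be set against each other but not against the RPKM above. RPKM was scaled to the reads of all transcript entries and CPM to those of 1 entry per gene. The same gamma entry was thus at 4.50 RPKM in WT embryos. Some neighbours in the order were not separated. Cxcr4 was above Pdgfa in 6 of 8 embryos, and Pdgfrb above Cxcl12 in 4 of 8. Pdgfra was above Cxcr4, Pdgfa above Pdgfrb, Cxcl12 above Pdgfc and Pdgfc above Pdgfb in 8 of 8 embryos, although between embryos only the values of Pdgfc and Pdgfb did not overlap.

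Ligands and receptors were then compared with each other within each embryo, since a ratio within a library does not depend on how libraries are scaled. The 4 pairs are given as log2 ratios of ligand RPKM to receptor RPKM. For Pdgfa/Pdgfra the ratios were -0.49, -0.31, -0.51 and -0.62 in WT1 to WT4 and -0.72, -0.83, -0.61 and -0.88 in KO1 to KO4. The groups overlapped by 1 embryo of each genotype, WT4 and KO3. The means were -0.48 ± 0.13 in WT and -0.76 ± 0.12 in KO embryos (SD, n = 4), a difference of -0.28, with an exact two-sided permutation p of 0.0571, or 0.2284 when adjusted by Benjamini-Hochberg over the 4 ratios. The smallest p this design can give is 0.0286.

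The 3 other ratios were less separated. For Cxcl12/Cxcr4 they were -0.72, -0.82, -1.69 and -1.0 in WT1 to WT4 and -0.67, -0.69, -1.0 and -0.35 in KO1 to KO4. WT3 was far below the others, and without it the difference of the means went from 0.38 to 0.16 (exact permutation p = 0.1714 with all embryos). For Pdgfb/Pdgfrb the ratios ran from -3.43 to -2.79 in WT and from -3.04 to -2.84 in KO embryos, so that all knockout values lay within the wild-type range (exact permutation p = 0.2286). The difference of these means was 0.21, and 0.12 without WT3 or 0.33 without WT2. For Pdgfc/Pdgfra the means were -2.60 ± 0.64 and -2.60 ± 0.21 (exact permutation p = 1.0), and without WT3, the lowest at -3.54, the difference was -0.31.

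**Figure D3:**
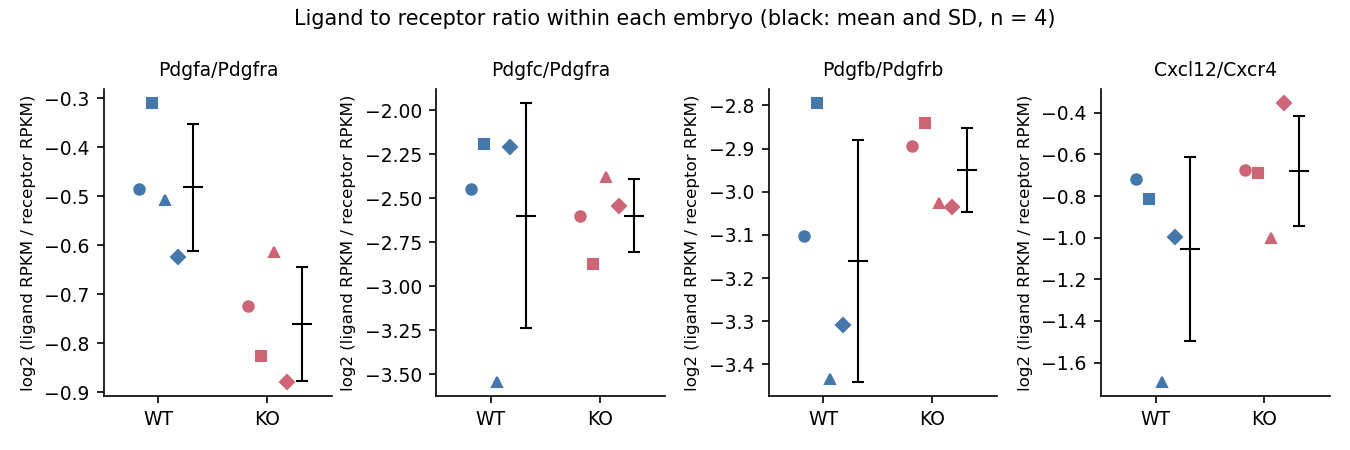
Log2 ratio of ligand RPKM to receptor RPKM in each embryo, for 4 pairs, with the mean and SD in black (n = 4); the vertical axes do not start at 0 and differ between panels. Symbols mark embryos 1 to 4 of each genotype as circle, square, triangle and diamond. WT3 (blue triangle) is the lowest value for Pdgfc/Pdgfra, Pdgfb/Pdgfrb and Cxcl12/Cxcr4.

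The transcript entries of Cxcl12 were compared next, with the coding ends printed above. The alpha, beta and gamma entries (NM_021704, NM_013655 and NM_001012477) were 1873, 3167 and 5664 bases long, and because they share exons their reads overlap. The last exon of the gamma form begins at 117126104 on chromosome 6 and contains the whole last exon of the beta form. The gamma count minus the beta count thus gives the reads of a stretch of 2497 bases (117126104 to 117128600, mm9). This stretch is exon in the gamma form alone. It lies directly before the last exon of the beta form, so reads of unspliced transcripts cannot be told apart from gamma reads there. That stretch had 218, 231, 153 and 287 reads in WT1 to WT4 and 359, 311, 188 and 377 reads in KO1 to KO4. It took 19.6% to 22% of the gamma entry's reads in WT and 20.4% to 22.7% in KO embryos, so its share was alike in all 8 libraries.

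Per kilobase the gamma-only stretch was at 3.67 ± 0.788 CPM in WT and 5.51 ± 1.43 CPM in KO embryos (SD, n = 4), a ratio of means of 1.5. The alpha entry was at 7.77 ± 2.71 and 10.6 ± 2.15 CPM per kilobase, a ratio of 1.37, and the beta entry at 11.0 ± 2.62 and 15.8 ± 3.59, a ratio of 1.44. Each of these had overlapping groups and an exact two-sided permutation p of 0.0857 or more. In every library the beta entry had more reads per base than the gamma-only stretch. With the beta entry in place of the gamma entry the edgeR fit gave a log2 fold change of 0.52 (FDR 0.232).

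**Figure D4:**
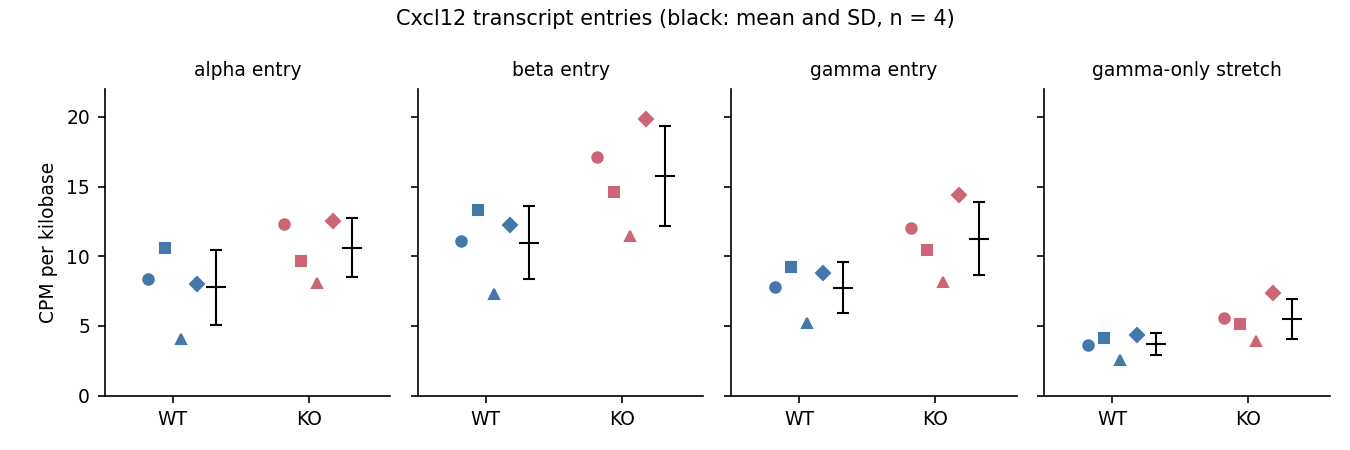
Reads of the 3 Cxcl12 transcript entries and of the stretch that is exon in the gamma form alone, as TMM-scaled CPM per kilobase. Each embryo is a symbol, with the mean and SD in black (n = 4). All panels share an axis that starts at 0; the knockout mean is the higher in each, with overlapping embryos.

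Pdgfra had 5 entries. The pair of long ones, 6547 and 6570 bases, had nearly the same counts, the second at 99.8% to 100.0% of the first. The shorter coding entries of 4069 and 3513 bases had 34.7% to 41.6% of the reads of the first entry, and the non-coding entry of 1653 bases had 18.9% to 24.4%. KO4 had the lowest of these shares and WT2 the highest. The edgeR estimate with the second entry was 0.21, the same to 2 decimals.

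Other genes of the pathways were taken from lists named by role. Outside the cell, 14 genes of the PDGF system (a further ligand, processing proteases, binding proteins and co-receptors) were all tested, and 0 passed the FDR, with 9 estimates above 0 and a median log2 fold change of 0.10. Of the 14, 6 had an unadjusted p under 0.05, 4 higher and 2 lower, where 17.4% of all genes did. The values of Cspg4, a proteoglycan that binds PDGF-A, were 4.67, 3.55, 4.05 and 4.45 CPM in WT1 to WT4 and 1.04, 0.995, 2.25 and 2.25 CPM in KO1 to KO4. The groups did not overlap, with a log2 fold change of -1.37 (SE 0.29, edgeR FDR 0.0622). Plau, which encodes a secreted protease, was at 2.82 to 4.35 CPM in WT and 4.83 to 8.63 CPM in KO embryos (log2 fold change 0.91, edgeR FDR 0.0849). Pdgfrl, which encodes a receptor-like protein without a kinase, was at 1.0 to 1.37 and 1.58 to 3.14 CPM (log2 fold change 1.03, edgeR FDR 0.0866). None of these 3 passed the edgeR threshold, and all 3 passed that of DESeq2. The fourth ligand of the family, Pdgfd, was singled out after its values were seen: it was at 4.26 to 6.12 CPM in WT and 2.50 to 4.56 CPM in KO embryos (log2 fold change -0.43, edgeR FDR 0.334).

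Inside the cell, 41 adaptors, enzymes and inhibitors downstream of PDGF receptors were all tested. None passed the FDR, 3 had an unadjusted p under 0.05, where 17.4% of all genes did, and the estimates ran from -0.18 to 0.21 with a median of -0.0059. For 38 of the 41 the 95% interval lay within 1.5-fold of no change, as for 68.5% of all genes. Mapk3, which encodes the kinase ERK1, had the largest estimate (0.21, edgeR FDR 0.215), and Ptpn2, a phosphatase that acts on these receptors, the lowest (-0.18, edgeR FDR 0.231). Plcg1 (0.20, edgeR FDR 0.276) and the phosphatase gene Ptprj (0.17, edgeR FDR 0.298) came next in the order of p.

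On the CXCL12 side, 28 of 32 listed genes passed the filter and 0 passed the FDR, with 11 estimates above 0, a median of -0.04 and 3 genes with an unadjusted p under 0.05, against 17.4% of all genes. Cxcl10, Cxcr3, Cd74 and Rac2, genes of immune cells, had 13 to 48 reads in all and were below the filter. The scavenging receptor gene Ackr3, singled out after its values were seen, was at 15.4 to 25.7 CPM in WT and 21.3 to 27.8 CPM in KO embryos (log2 fold change 0.24, 95% interval -0.11 to 0.59, edgeR FDR 0.458). Gng2, a G protein subunit, was at 70.1 to 85.6 and 83.3 to 103 CPM (log2 fold change 0.27, edgeR FDR 0.183). Mif, a cytokine that also binds CXCR4, had a log2 fold change of -0.29 (edgeR FDR 0.235) and Itch, a ubiquitin ligase that sends CXCR4 to degradation, one of -0.15 (edgeR FDR 0.328).

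Receptor tyrosine kinases and ligands related to the PDGF family made a list of 15 genes, of which 12 were tested and 0 passed the FDR. An unadjusted p under 0.05 was reached by 5 of the 12, 3 higher and 2 lower, where 17.4% of all genes reached it, and the median was 0.04. Kit, a receptor gene that is also a neighbour of Pdgfra, was at 61.4 to 74.7 CPM in WT and 77.0 to 97.5 CPM in KO embryos, without overlap (log2 fold change 0.37, SE 0.09, edgeR FDR 0.0968). Its ligand gene Kitl was at 62.2 to 73.3 and 43.5 to 57.6 CPM, also without overlap (log2 fold change -0.41, SE 0.10, edgeR FDR 0.0863). Vegfb (0.34, edgeR FDR 0.0887) and Pgf (-0.56, edgeR FDR 0.182) encode ligands of the same superfamily. Kit, Kitl and Vegfb passed the threshold of DESeq2.

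The genes next to Pdgfra were listed for their position. Of 10 neighbours 9 were tested, 0 passed the FDR and the median was -0.02. Besides Kit, given above, Fip1l1, an mRNA processing factor, was at 140 to 155 CPM in WT and 122 to 128 CPM in KO embryos without overlap (log2 fold change -0.21, edgeR FDR 0.0879), and it passed the threshold of DESeq2. Chic2 (-0.07) and Kdr (-0.14), which encodes the main VEGF receptor, had edgeR FDRs of 0.646 and 0.681.

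Immediate early genes are switched on within minutes by growth factors such as PDGF, and also by tissue handling. Of 15 listed genes 13 had an unadjusted p under 0.05, all lower in the knockout, where 10.1% of all genes had one as lower, and 0 passed the FDR; the median log2 fold change was -1.55. The sum of the 15 was 1127, 1508, 342 and 393 CPM in WT1 to WT4 and 283, 312, 362 and 281 CPM in KO1 to KO4. WT1 and WT2 were thus far above the 6 others, and KO3 was above WT3. Egr1 and Fos, singled out after their values were seen, were at 257 and 283 CPM and at 137 and 271 CPM in WT1 and WT2, and at or below 31.7 and 27.2 CPM in the 6 other embryos. Srf, the factor that drives many of these genes, was at 132, 131, 109 and 92.8 CPM in WT1 to WT4 and at 73.8 to 88.7 CPM in the knockout embryos (log2 fold change -0.51, SE 0.11, edgeR FDR 0.069). Klf2, Junb and Nr4a1 had log2 fold changes of -2.43, -1.74 and -1.55 (edgeR FDR 0.0866 to 0.105). Egr1, Ier2, Junb, Klf2, Nr4a1 and Srf passed the threshold of DESeq2, and without WT3 edgeR called 10 genes over all pathway lists, which were Dusp1, Egr1, Ier2, Jun, Junb, Klf2, Nr4a1, Srf, Mapk3 and Mif. WT1 and WT2 were also the pair with the lower Pdgfra, and the part of what set these embryos apart in the Pdgfra values was not tested.

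**Figure D5:**
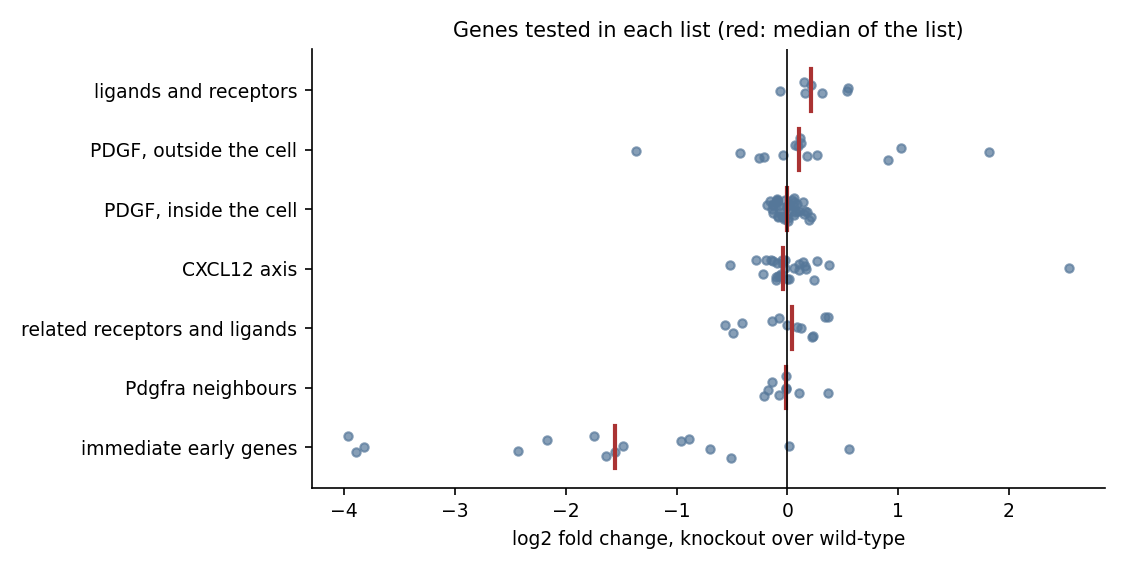
Log2 fold change, knockout over wild-type, of every gene tested in each list, 1 point a gene, with the median of the list as a red bar. The genes inside the cell gather around 0, and the immediate early genes have a median of -1.55.

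The genes whose pattern over the 8 embryos was most like that of each ligand or receptor were looked up by Pearson's r of log2 CPM, as a description. The closest were Gas1 and Susd4 for Cxcl12 (r = 0.98 and 0.97), Sostdc1 and Cp for Pdgfc (0.97 each), Zfp318 and Med18 for Pdgfra (0.98 each) and Erbb3 and Abhd17a for Pdgfrb (0.98 and 0.97). For Pdgfa they were Afdn and Fam171a1 (0.94 and 0.91), for Pdgfb Ap2b1 and Leng8 (0.98 and 0.94) and for Cxcr4 Map10 and Ribc1 (0.98 and 0.96). None of these genes passed the FDR (edgeR FDR 0.134 or more). They were the best of 11043 genes over 8 points that share their libraries and depth.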

How the data were processed

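RNA was sequenced from single embryos, 4 wild-type and 4 knockout. According to the study's methods the authors mapped reads to mm9 with STAR (introns of 20 to 500000 bases) and counted exon reads on both strands per RefSeq transcript with HOMER; versions are not given in the sources used here. The deposited table held raw read counts, transcript lengths and RPKM computed by the authors. The deposited columns of the authors' own DESeq2 comparison (mean signal, log2 fold change, its error and test scores, p-values) were not used.

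From the counts, each symbol was represented by its transcript of highest summed count, and genotype was tested with edgeR 4.0.16 (filterByExpr, TMM, quasi-likelihood F test) over 14075 genes, with Benjamini-Hochberg FDR under 0.05. Intervals are 95% and unadjusted. CPM and SD are per embryo. Exact permutation tests were two-sided. Total counts were 18916452 to 26153039 per library. With 1 RNA sample per embryo, p-values judge the genotype difference against the spread between these embryos. Reads on both strands were counted, so antisense reads cannot be told apart.

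The genes and lists were chosen with earlier results of these data known. Beside the 7 genes, the text names for each list the 4 genes with the lowest p, and for each gene the 2 of highest Pearson's r among genes with a mean of at least 5 CPM. Alternatives were other size factors, no filter, DESeq2 1.42.0, a replicate block, a Y-linked covariate, the second transcript entry and leaving out each embryo. The fit was also run on counts simulated from its own dispersions, with planted changes larger than the estimates of the 7 genes. That run cannot tell how well changes of the size seen in these genes would be found.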

Additional observations from a re-analysis of the deposited data

How the results depend on the processing

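None of the 7 genes passed the FDR threshold under any alternative run. The number of all genes past it was 137, and 142 with RLE size factors, 134 without a filter, 107 with the Y-linked covariate, 76 with the replicate block and 699 with DESeq2. Leaving out 1 embryo gave 70 to 490 genes: 490 without wild-type embryo 3, 73, 85 and 85 without wild-type embryos 1, 2 and 4, and 81 and 70 without knockout embryos 1 and 4. Of the other pathway genes 0 passed, against 14 with DESeq2, 1 (Srf) with the replicate block and 0 to 10 when leaving out 1 embryo (10 without wild-type embryo 3, 1 without wild-type embryo 4). The Pdgfc log2 fold change of 0.15 became -0.12 with the Y-linked covariate and -0.0488 without wild-type embryo 3, and ran from -0.05 to 0.36 when leaving out 1 embryo. The Pdgfc/Pdgfra ratio difference was 0.000285 from RPKM and -2.05e-05 from raw counts with 0.5 added, both too small for the sign to carry meaning. It ran from -0.31 to 0.14 when leaving out 1 embryo. The cause of the other shifts was not tested. The replicate numbers were not taken to pair the embryos, since same-numbered embryos had correlations of deviations of 0.122, 0.199, 0.0577 and 0.543, not all over 0.1 (2 of 8 libraries correlated best with their own number). With the replicate block the log2 fold changes were -0.06 for Pdgfa, 0.54 for Pdgfb, 0.20 for Pdgfc, 0.22 for Pdgfra, 0.33 for Pdgfrb, 0.54 for Cxcl12 (edgeR FDR 0.104) and 0.16 for Cxcr4, and 3 of the 7 had an unadjusted p under 0.05 (Cxcl12, Pdgfb and Pdgfra).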

Other observations

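Among the listed genes with the lowest p, A2m and Cxcl14 were high in knockout embryos 3 and 4 alone. A2m, which encodes a protease inhibitor that binds PDGF, was at 21.4 and 39.5 CPM there and at 2.74 to 8.81 CPM in the 6 other embryos (log2 fold change 1.82, edgeR FDR 0.199). Cxcl14, a chemokine reported to bind CXCR4, was at 2.30 and 8.47 CPM there and at 0.342 to 0.626 CPM in the others (log2 fold change 2.54, edgeR FDR 0.182). Cxcl14 passed the threshold of DESeq2.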
